A study of Mus musculus with 6 samples.

Results

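The genes described here are 45 genes of mitosis: 12 spindle motors, 8 other proteins of the spindle microtubules, 6 genes of cytokinesis, 11 mitotic kinases, cyclins and phosphatases, 5 genes of the anaphase-promoting complex or cyclosome (APC/C) and of anaphase, and 3 genes of transcription and chromosomes. They were chosen by name as known mitosis genes, at a time when earlier results of these data were known. They are 45 of the 24732 gene symbols with an expression value. They lie on 18 chromosomes. Expression was measured by RNA-seq in cultured mouse cells labelled as female germline stem cells (FGSCs). There were 3 control samples and 3 samples in which CTCF was knocked down with a short hairpin RNA (shCTCF group). CTCF is a DNA-binding protein that shapes chromatin loops and domains.

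Both groups carried the same genetic background, given in the labels as strain C57BL/6, and both had been passaged more than 20 times on a layer of mitotically inactivated STO fibroblasts. Per the study's methods the FGSCs came from ovaries of neonatal Ddx4-Cre; mT/mG mice, in which Cre is driven by the promoter of the germ cell gene Ddx4 and switches a fluorescent reporter. The shCTCF cells were infected with a lentivirus that carries 1 hairpin sequence, and those that survived puromycin were collected. What virus or selection the control cells received is not given in the labels, so that knockdown and infection cannot be told apart here. The labels do not say whether the samples of a group were separate cultures, and p-values therefore measure only the spread between these samples.

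Mitosis is driven by cyclin-dependent kinase 1 (Cdk1) bound to cyclin B, which phosphorylates a large number of proteins so that chromosomes condense and microtubules form a bipolar spindle. Kinesin motors push, slide and shorten spindle microtubules, and Aurora and Polo-like kinases control their attachment to chromosomes. The APC/C then marks cyclin B and securin for destruction, separase cuts the cohesin that holds sister chromatids, and a contractile ring divides the cell. Many of these genes are transcribed in a wave in G2 and mitosis, for which the DREAM and B-Myb-MuvB complexes and the factors Foxm1 and NF-Y are known.

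Ctcf itself was at 58.2, 56.1 and 53.5 FPKM (fragments scaled to transcript length and to the mapped fragments of the library) in the controls and at 0.74, 0.55 and 0.629 FPKM in the shCTCF samples. Markers of the labelled cell type were mostly absent. Of 9 markers of germline cells, only Etv5, Zbtb16 and Ifitm3 reached 1 FPKM in any sample. The study used Etv5 and Zbtb16 (Plzf) for male germline stem cells, and Ifitm3 (Fragilis) for FGSCs. Dppa3 and Gfra1 were listed at 0 in all 6 samples, and Ddx4 was at most at 0.18 FPKM. The summed level of the 9 markers was 19.52 to 19.83 FPKM in the controls, most of it Etv5, and 25.68 to 27.0 FPKM in the shCTCF group. Single markers went opposite ways. Zbtb16, which was not tested, was at 1.145, 1.989 and 1.56 FPKM in the controls and at 0.291, 0.291 and 0.281 FPKM in the shCTCF samples. Ifitm3 rose from 0.74 ± 0.65 to 10.8 ± 0.33 FPKM, and Etv5 fell from 17.3 ± 0.57 to 14.2 ± 0.19 FPKM (mean ± SD, n = 3 in each group here and below). Of 23 fibroblast markers, 7 reached 1 FPKM, Col3a1, Col5a2, Loxl1 and Lum were listed at 0 throughout, and the sum was 12.9 to 13.53 FPKM in the controls and 31.19 to 33.16 FPKM in the shCTCF group. Of the 7 fibroblast markers tested on FPKM, 4 were higher, among them Col6a1 (0.14 to 15.3 FPKM by the means) and Mmp2 (0.14 to 7.03 FPKM), and 3 were lower, namely Pdgfrb (6.09 to 2.16 FPKM), Fn1 (2.22 to 0.027 FPKM) and Dcn (2.71 FPKM to a listing at 0). Of 12 leukocyte markers, 11 reached 1 FPKM, with sums of 1549 to 1662 FPKM in the controls and of 1500 to 1579 FPKM after knockdown. These similar sums held large changes of single markers. Of the 11 markers 4 were lower and 3 higher, beside 44.2% lower and 28.8% higher over all genes tested on FPKM. Ctsg, a granule protease of myeloid cells, fell from 150.7 ± 19.4 to 2.22 ± 0.28 FPKM and Cpa3, a protease of mast cells, from 280.7 ± 56.7 to 87.98 ± 13.1 FPKM, while Laptm5 rose from 180.7 ± 8.25 to 457.7 ± 10.0 FPKM and Fcer1g from 98.6 ± 18.5 to 281.9 ± 5.64 FPKM. The identity of the cells and the part of cell composition in the results below were not tested.

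Control replicate 2 had the smallest library, with 1686052 counts compared with 5322636 to 7044272 in the other samples. Its FPKM relative to the mean of the other controls followed base composition. Across the 45 genes this ratio ran from 0.636 for Hmmr to 1.34 for Kifc1, and its Spearman correlation with the GC content of the exons was 0.78, compared with 0.61 across 9964 genes tested. The points share 1 library, and the correlation is given as a description. The sample was the lowest control for 18 of the 45 genes and the highest for 21, so that it moved the mean of the controls in either direction by gene.

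**Figure D1:**
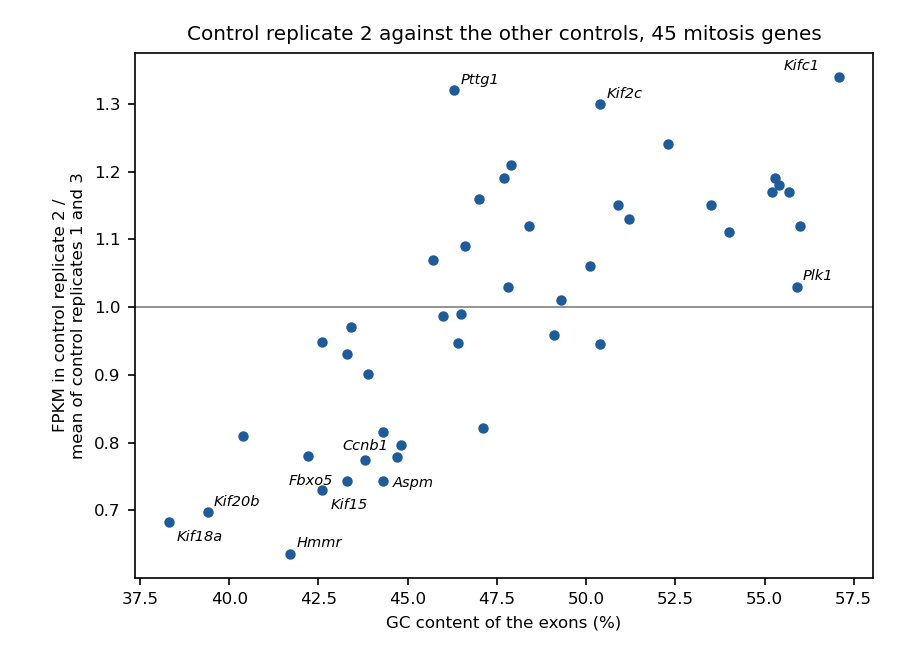
Each point is 1 of the 45 mitosis genes. The horizontal axis gives the GC content of its exons in percent and the vertical axis the FPKM of control replicate 2 divided by the mean of control replicates 1 and 3. Genes poor in GC such as Hmmr (0.636) lie below 1 and genes rich in GC such as Kifc1 (1.34) lie above 1.

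Promoter sequences are shown for 6 of the genes, because the known regulators of this gene class bind 2 short elements near the start site. Of the 6 genes, 5 fell more than 5-fold while Fbxo5 did not pass the test. Cdc25b, which fell most of all, is not among those shown. The windows run from 250 bases before to 50 bases after the annotated start, 5′ to 3′ along the transcript, and are those of RefSeq on GRCm38.p6. Capitals mark CCAAT, the box bound by NF-Y, and TTTGAA, a form of the cell cycle genes homology region that MuvB complexes bind. Either strand was searched, so that ATTGG and TTCAAA in capitals are the same elements on the other strand.
Plk1 (chr7:122159185-122159484, + strand): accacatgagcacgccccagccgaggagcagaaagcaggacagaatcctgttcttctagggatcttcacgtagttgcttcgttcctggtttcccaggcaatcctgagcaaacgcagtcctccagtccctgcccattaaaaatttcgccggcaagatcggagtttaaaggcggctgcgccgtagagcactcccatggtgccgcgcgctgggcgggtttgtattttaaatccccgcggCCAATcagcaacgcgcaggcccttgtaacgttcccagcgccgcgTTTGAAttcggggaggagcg
Cdc20 (chr4:118437294-118437593, - strand): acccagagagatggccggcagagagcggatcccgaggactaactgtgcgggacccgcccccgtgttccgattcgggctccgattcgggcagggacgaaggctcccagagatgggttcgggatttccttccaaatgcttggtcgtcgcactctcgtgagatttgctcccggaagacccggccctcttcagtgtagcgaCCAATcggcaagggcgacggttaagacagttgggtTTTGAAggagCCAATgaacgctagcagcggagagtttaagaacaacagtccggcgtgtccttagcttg
Ccnb1 (chr13:100786437-100786736, - strand): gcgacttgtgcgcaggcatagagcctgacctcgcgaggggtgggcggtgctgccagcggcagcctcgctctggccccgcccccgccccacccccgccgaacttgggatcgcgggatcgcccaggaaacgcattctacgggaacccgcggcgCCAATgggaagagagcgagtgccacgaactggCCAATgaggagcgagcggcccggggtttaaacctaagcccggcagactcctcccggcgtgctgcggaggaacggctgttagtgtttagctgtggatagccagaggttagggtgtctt
Aspm (chr1:139454523-139454822, + strand): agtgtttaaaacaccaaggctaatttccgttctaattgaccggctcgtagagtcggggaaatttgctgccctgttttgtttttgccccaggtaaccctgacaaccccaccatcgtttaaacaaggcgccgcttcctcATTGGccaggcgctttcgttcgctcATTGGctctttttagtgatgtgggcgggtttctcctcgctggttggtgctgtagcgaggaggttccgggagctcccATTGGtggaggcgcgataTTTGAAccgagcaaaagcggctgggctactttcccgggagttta
Kif15 (chr9:122950831-122951130, + strand): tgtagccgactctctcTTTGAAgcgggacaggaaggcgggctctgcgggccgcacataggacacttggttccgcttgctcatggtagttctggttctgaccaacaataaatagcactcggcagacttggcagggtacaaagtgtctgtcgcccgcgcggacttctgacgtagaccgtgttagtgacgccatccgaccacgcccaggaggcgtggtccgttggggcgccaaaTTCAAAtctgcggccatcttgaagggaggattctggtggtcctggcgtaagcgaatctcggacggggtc
Fbxo5 (chr10:5805416-5805715, - strand): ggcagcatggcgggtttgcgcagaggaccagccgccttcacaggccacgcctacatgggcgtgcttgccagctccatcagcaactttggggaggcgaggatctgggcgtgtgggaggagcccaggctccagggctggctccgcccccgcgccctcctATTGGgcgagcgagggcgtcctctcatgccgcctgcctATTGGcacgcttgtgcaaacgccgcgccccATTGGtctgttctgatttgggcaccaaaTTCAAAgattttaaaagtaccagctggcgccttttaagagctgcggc

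In Plk1 the CCAAT began at position -14 and the TTTGAA at 31, where 1 is the first transcribed base. Cdc20 held CCAAT at -53 and -8 with TTTGAA between them at -18. Ccnb1 held CCAAT at -99 and -67 and no TTTGAA or TTCGAA in the window, and Kif15 held TTTGAA at -234 and -19 and no CCAAT. Fbxo5, whose mRNA changed least, held CCAAT at -93, -55 and -25 and TTTGAA at 4. Any part of these elements in the changes was not tested.

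A promoter window was found for 38 of the 45 genes, with 41 windows in all. CCAAT was present in 31 of them (75.6%), compared with 37.4% of 32851 windows of the same length over all genes. TTTGAA or the related TTCGAA was present in 35 (85.4%), compared with 19.2% of all windows, and 29 windows (70.7%) held CCAAT together with either of these, compared with 7.52%. Within 100 bases before to 50 bases after the start, TTTGAA or TTCGAA was present in 78.0% of the windows and in 8.59% of all. Kif18a, Nusap1, Cit and Pttg1 held none of the 3 motifs. Cdc25b, whose window is not shown above, held CCAAT and TTCGAA. These are matches of letters, and binding in these cells was not measured here.

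Of the 45 mitosis genes tested on FPKM, 44 were lower in the shCTCF group, 0 were higher, and Fbxo5 did not pass the test (limma on log2(FPKM + 1), adjusted p below 0.05). Among all 9976 genes tested, 44.2% were called lower and 28.8% higher. The 45 genes were chosen with earlier results of these data known, so the shares here and below are a description. The summed level of the 45 genes was 1734, 1743 and 1718 FPKM in the controls and 571.6, 602.1 and 598.6 FPKM in the shCTCF samples. The spread of this sum within either group was thus small beside the gap between the groups. Single genes spread more. The median SD of a gene was 9.59% of its mean in the controls and 7.73% in the shCTCF group, and that of Hmmr was 23.9% in the controls. The median log2 fold change was -1.35, compared with -0.17 over all genes tested, and the median gene was 2.77-fold lower by the ratio of mean FPKM. In bulk samples, fewer dividing cells and less of these mRNAs per cell cannot be told apart.

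Most of the 45 genes changed by more than 2-fold. At least 2-fold lower mean FPKM was found for 39 of the 45 genes and for 18.7% of all genes tested. At least 3-fold lower were 19 and at least 4-fold lower were 11, compared with 6.91% and 3.38% of all genes, and at least 5-fold lower were 6, compared with 2.18%. These 6 were Cdc25b, Plk1, Ccnb1, Cdc20, Aspm and Kif15. In 44 of the 45 genes every shCTCF sample lay below every control sample, which held for 45.8% of all genes tested.

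**Figure D2:**
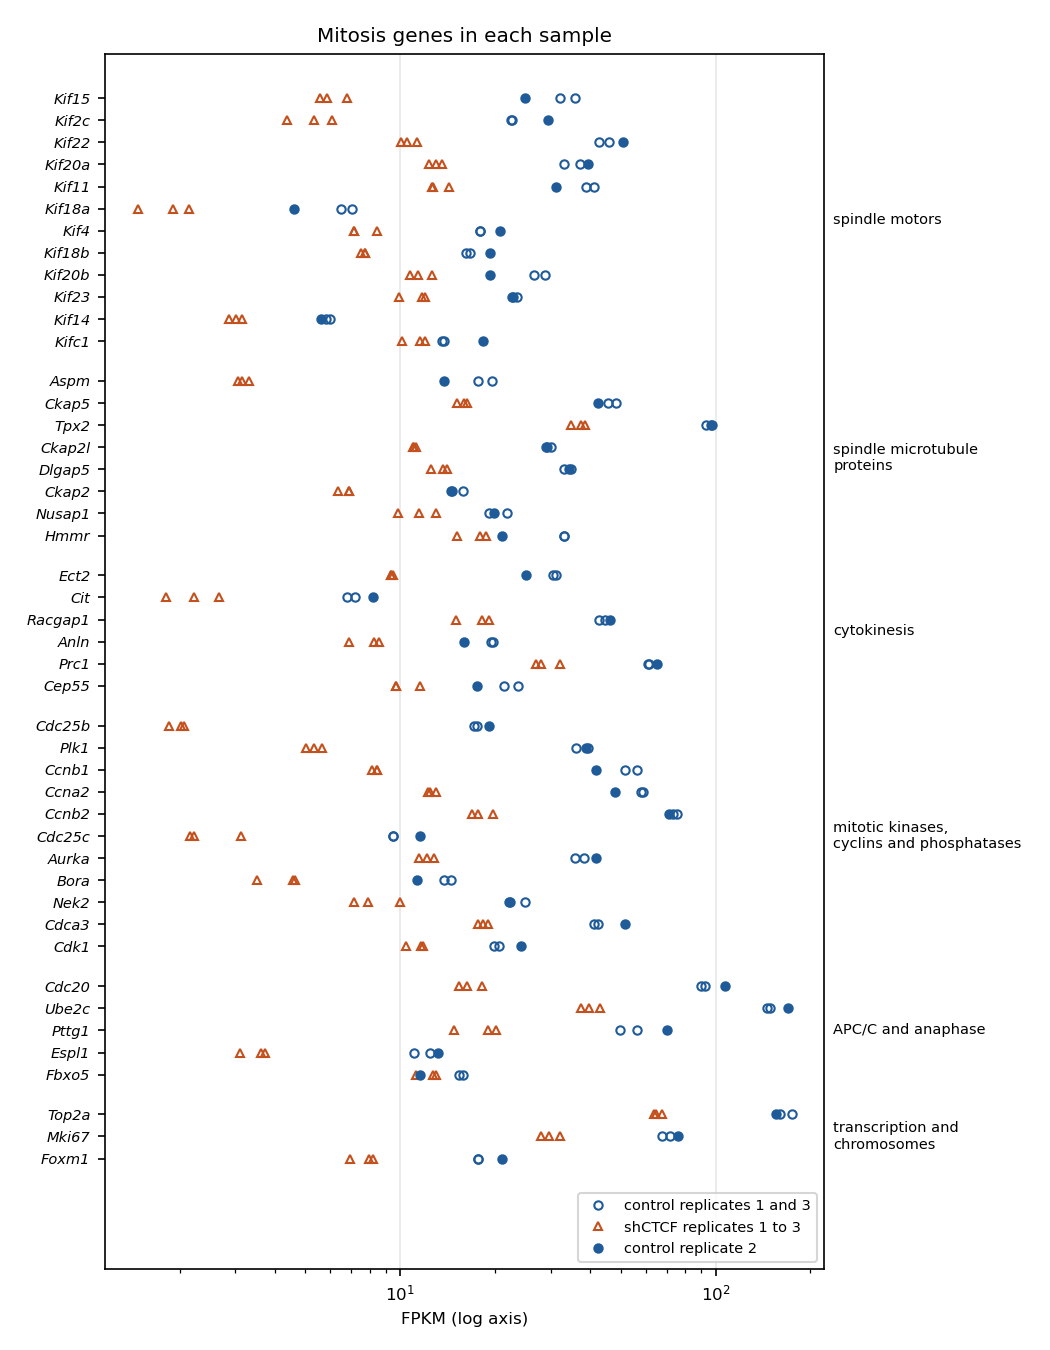
FPKM on a log axis of the 45 mitosis genes in each of the 6 samples, grouped by role and ordered within a role by fold change. Blue circles are controls, filled for control replicate 2, and orange triangles are shCTCF samples. The groups are apart in 44 genes and overlap in Fbxo5.

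The count table gave a second reading of 31 of the genes. Of these, 29 were lower, 0 were higher, and Kifc1 and Fbxo5 did not pass the test (edgeR's quasi-likelihood test). Over all 7341 genes tested on counts, 34.3% were lower and 34.8% higher. The median log2 fold change was -1.22 in the 31 genes and -0.02 over all genes. No gene had opposite signs in the tables, and the largest difference between them was 0.239 on the log2 scale. Both tables come from the same libraries and are no independent replication. The other 14 genes, among them Aurka, Cdc25b, Tpx2, Ect2 and Prc1, had at most 9 counts in a sample. In these genes between 0.0% and 57.8% of the exon bases belonged to 1 transcript accession only, and fragments over bases shared by accessions were not counted.

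**Figure D3:**
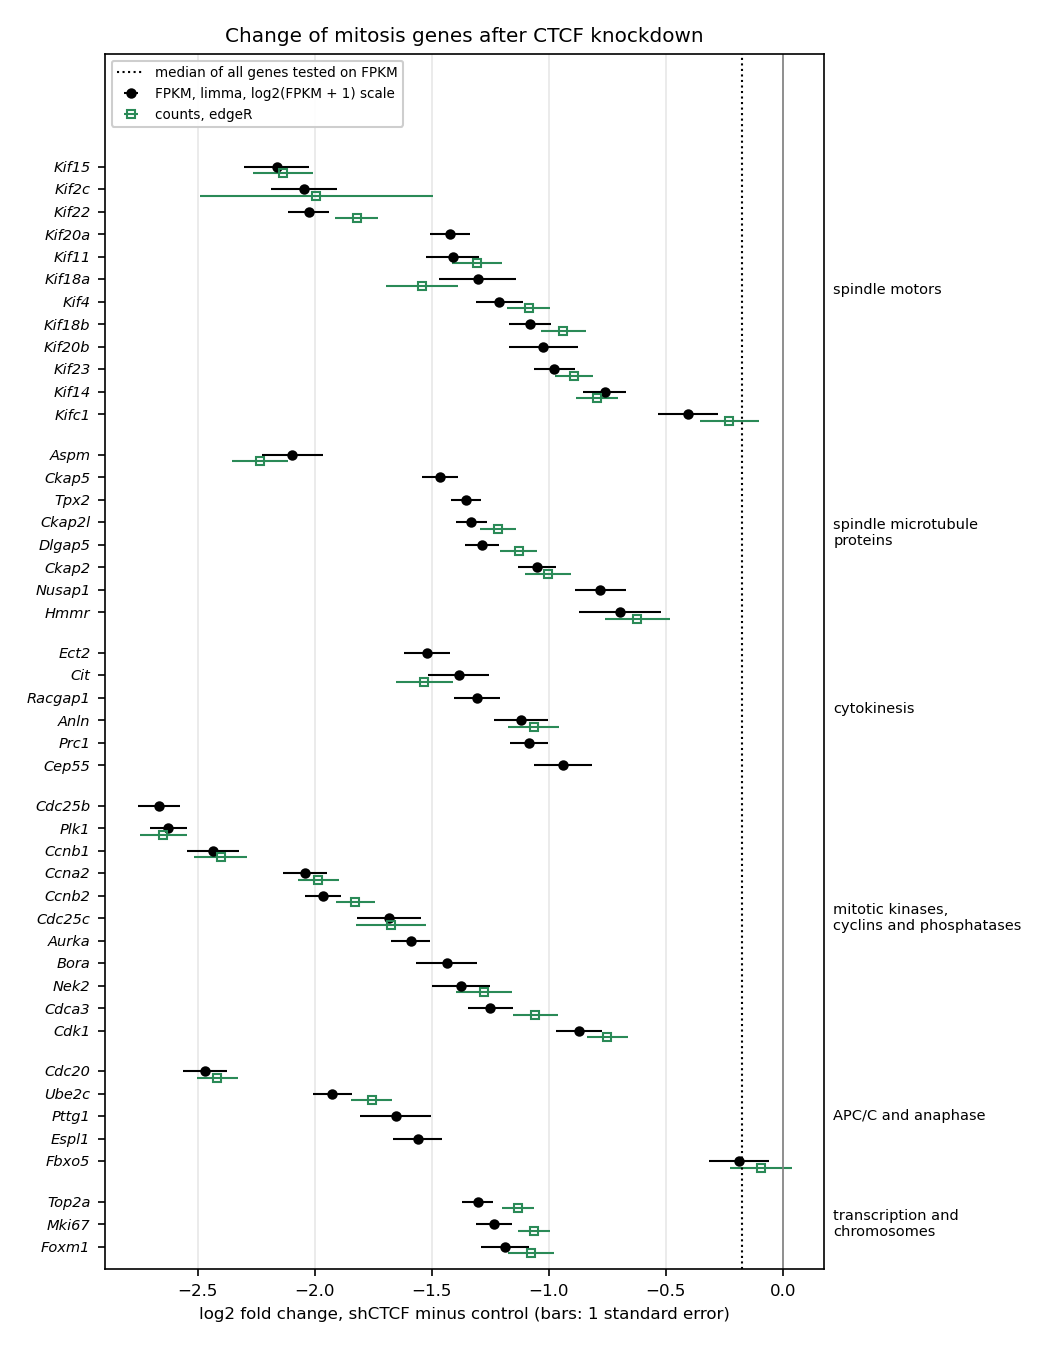
Log2 fold change of the 45 mitosis genes, shCTCF minus control, with bars of 1 standard error. Black circles are FPKM on the log2(FPKM + 1) scale and green squares are counts, which are shown for the 31 genes tested. The dotted line is the median of all genes tested on FPKM (-0.17), and every gene lies to the left of it on FPKM, Fbxo5 by the least.

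Kinases, cyclins and phosphatases of mitotic entry had a median log2 fold change of -1.68 on FPKM and -1.75 on counts, close to that of the APC/C and anaphase genes (-1.66 and -1.76). All 11 were lower on FPKM, with a median of 4.05-fold, and all 8 tested on counts were lower. For this role and those below, the shares lower over all genes tested were 44.2% on FPKM and 34.3% on counts. Cdc25b, the phosphatase that starts the activation of Cdk1 in G2 (chromosome 2, 131012684 to 131024247, mm9), was at 17.5, 19.1 and 17.1 FPKM in the controls and at 1.84, 2.06 and 2.01 FPKM in the shCTCF samples. It fell most of the 45 genes, 9.07-fold, with a log2 fold change of -2.67 ± 0.09 (SE) and an adjusted p of 2.2e-07. Its related phosphatase Cdc25c went from 10.2 ± 1.17 to 2.50 ± 0.54 FPKM.

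Plk1, the Polo-like kinase of centrosome maturation and mitotic entry (chromosome 7, 129302949 to 129313398), was at 39.3, 38.8 and 36.1 FPKM in the controls and at 5.34, 5.64 and 5.02 FPKM in the shCTCF samples. The groups were far apart, with a log2 fold change of -2.63 ± 0.08 and an adjusted p of 1.3e-07. The controls had 999, 252 and 1003 counts and the shCTCF samples 128, 118 and 130, where 252 belongs to the small library of control replicate 2, and gave a log2 fold change of -2.65. Bora, the cofactor with which Aurora A switches on Plk1, went from 13.2 ± 1.71 to 4.24 ± 0.62 FPKM.

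Ccnb1, the main cyclin B (chromosome 13, 101548694 to 101556441), was at 51.8, 41.8 and 56.2 FPKM in the controls and at 8.47, 8.11 and 8.45 FPKM in the shCTCF samples, which was 5.98-fold lower (log2 fold change -2.44 ± 0.11, adjusted p = 9.5e-07). Ccnb2 and Ccna2, which encode cyclins B2 and A2, fell 4.06-fold and 4.39-fold. Their partner Cdk1 fell least of the 11 genes. It was at 20.6, 24.1 and 19.9 FPKM in the controls and at 10.4, 11.7 and 11.8 FPKM in the shCTCF samples, without overlap (log2 fold change -0.87 ± 0.10, adjusted p = 9.5e-05).

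Aurka, the kinase of spindle poles, was at 35.9, 41.7 and 38.3 FPKM in the controls and at 12.8, 12.2 and 11.5 FPKM in the shCTCF samples (log2 fold change -1.59 ± 0.08, adjusted p = 1.7e-06). Of its transcript accessions, the main one went from a mean of 34.1 to 12.2 FPKM and the other from 4.53 FPKM to a listing at 0 in all shCTCF samples. Nek2, a kinase of centrosome separation, went from 23.1 ± 1.57 to 8.35 ± 1.501 FPKM, and Cdca3, a trigger of mitotic entry, from 45.1 ± 5.73 to 18.3 ± 0.64 FPKM.

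All 12 spindle motors were lower on FPKM, with a median of 2.64-fold, and 9 of the 10 tested on counts. Among all genes tested, 44.2% were lower on FPKM and 34.3% on counts. Kif15, a plus-end motor that helps to keep the spindle bipolar (chromosome 9, 122860199 to 122927851), fell most. It was at 35.8, 24.8 and 32.1 FPKM in the controls and at 5.87, 6.76 and 5.55 FPKM in the shCTCF samples (log2 fold change -2.16 ± 0.14, adjusted p = 5.2e-06). Kif11, the motor with which Kif15 shares this task, went from 36.9 ± 5.21 to 13.2 ± 0.93 FPKM. Its log2 fold change was -1.41 ± 0.11.

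Kif2c, which takes tubulin off microtubule ends and corrects wrong attachments, went from 24.8 ± 3.90 to 5.26 ± 0.86 FPKM. Of its exon bases 17.5% belonged to 1 accession only, and the controls had 45, 9 and 26 counts and the shCTCF samples 1, 7 and 13, so that its value on counts was imprecise (-1.99 ± 0.50). Kif22 and Kif4, the chromokinesins that push on chromosome arms, fell 4.37-fold and 2.49-fold. Kif18a, which dampens the oscillation of chromosomes at the metaphase plate, was among the lowest of the 45 genes, at 6.48, 4.61 and 7.04 FPKM in the controls and 1.47, 2.13 and 1.90 FPKM in the shCTCF samples.

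Kifc1, a motor that walks to the minus end and clusters spindle poles, fell least of the motors. It was at 13.8, 18.4 and 13.6 FPKM in the controls and at 10.1, 11.6 and 11.96 FPKM in the shCTCF samples. The groups did not overlap, and the highest value was that of control replicate 2. Kifc1 had the highest GC content of the 45 genes (57.1%). The log2 fold change was -0.40 ± 0.13 (95% interval -0.703 to -0.104, adjusted p = 0.022) on FPKM and -0.23 ± 0.13 (adjusted p = 0.125) on counts. For Kifc1 on FPKM the call remained without control replicate 2 (-0.27, adjusted p = 0.0182). It was lost after scaling of the samples to equal medians (-0.23, adjusted p = 0.143), with quantile normalization (-0.23, adjusted p = 0.145), without shCTCF replicate 1 (adjusted p = 0.0849) and without shCTCF replicate 2 (adjusted p = 0.0502).

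The 8 proteins of the spindle microtubules were all lower on FPKM, with a median of 2.57-fold, as were the 5 of them tested on counts. Aspm, a protein of spindle poles that orients the division and is known from hereditary microcephaly (chromosome 1, 141351350 to 141390665), was at 19.6, 13.8 and 17.6 FPKM in the controls and at 3.06, 3.31 and 3.14 FPKM in the shCTCF samples. This was 5.36-fold lower (log2 fold change -2.10 ± 0.13, adjusted p = 3.9e-06). Tpx2, which activates Aurora A on microtubules and was among the most abundant of the 45 mRNAs, went from 95.7 ± 2.10 to 36.9 ± 1.98 FPKM.

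Ckap5, a microtubule polymerase, fell 2.88-fold, and Dlgap5, which stabilises the fibres at kinetochores, fell 2.54-fold. Hmmr, a protein of spindle poles, changed least in this group. It was at 33.1, 21.0 and 33.1 FPKM in the controls and at 15.2, 18.6 and 17.9 FPKM in the shCTCF samples, and its lowest control was again control replicate 2. The log2 fold change was -0.70 ± 0.18 (adjusted p = 0.0079) on FPKM and -0.62 ± 0.14 on counts.

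All 6 genes of cytokinesis were lower on FPKM, with a median of 2.43-fold, and Anln and Cit, the only ones with counts to test, were lower there as well. Ect2, the exchange factor that activates RhoA at the cell equator (chromosome 3, 26996144 to 27052800), was at 31.2, 25.0 and 30.6 FPKM in the controls and at 9.35, 9.34 and 9.46 FPKM in the shCTCF samples (log2 fold change -1.52 ± 0.10, adjusted p = 4.9e-06). Racgap1, with which the motor Kif23 forms the centralspindlin complex, went from 44.5 ± 1.76 to 17.4 ± 2.17 FPKM, and Kif23 from 23.0 ± 0.52 to 11.2 ± 1.12 FPKM.

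Prc1, which bundles antiparallel microtubules of the midzone, fell 2.16-fold, and Cit, which encodes citron kinase of the contractile ring, fell 3.32-fold. Cep55, the protein that recruits the abscission machinery, fell least of the 6 genes. It was at 21.3, 17.5 and 23.6 FPKM in the controls and at 9.66, 11.5 and 9.73 FPKM in the shCTCF samples (log2 fold change -0.94 ± 0.12, adjusted p = 2.4e-04).

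Of the 5 genes of the APC/C and anaphase, 4 were lower on FPKM and 2 of 3 on counts, beside 44.2% and 34.3% of all genes. Cdc20, the activator of the APC/C at metaphase (chromosome 4, 118105506 to 118109948), was at 92.5, 107.1 and 89.9 FPKM in the controls and at 18.2, 16.2 and 15.4 FPKM in the shCTCF samples. This was 5.81-fold lower (log2 fold change -2.47 ± 0.09, adjusted p = 3.8e-07). Ube2c, the ubiquitin-conjugating enzyme of the APC/C, went from 154.7 ± 13.0 to 39.9 ± 2.76 FPKM. Securin (Pttg1) and separase (Espl1), the inhibitor and the protease of sister separation, fell 3.27-fold and 3.51-fold.

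Fbxo5, which encodes the APC/C inhibitor Emi1 (chromosome 10, 4541076 to 4547383), was the exception among the 45 genes. It was at 15.4, 11.6 and 15.8 FPKM in the controls and at 11.2, 13.0 and 12.7 FPKM in the shCTCF samples. The groups overlapped through control replicate 2. The log2 fold change was -0.19 ± 0.13 (95% interval -0.482 to 0.109, adjusted p = 0.217) on FPKM and -0.09 ± 0.13 (adjusted p = 0.541) on counts. Without control replicate 2 the fold change of Fbxo5 on FPKM was -0.32 (adjusted p = 0.00633). The interval with all samples leaves room for a small fall but not for the 2-fold change seen in most of the other genes.

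Top2a, the topoisomerase that untangles sister chromatids, had the highest level of the 45 genes, with 174.2, 155.4 and 159.8 FPKM in the controls and 63.9, 64.8 and 67.6 FPKM in the shCTCF samples (log2 fold change -1.30 ± 0.07, adjusted p = 1.5e-06). Mki67, the proliferation marker that coats mitotic chromosomes, was at 71.7, 76.0 and 67.7 FPKM in the controls and at 28.0, 29.7 and 32.2 FPKM in the shCTCF samples (log2 fold change -1.23 ± 0.08, adjusted p = 4.5e-06). Foxm1, the forkhead factor of the G2 gene wave, was at 17.7, 21.0 and 17.7 FPKM in the controls and at 6.92, 7.95 and 8.21 FPKM in the shCTCF samples (log2 fold change -1.19 ± 0.10, adjusted p = 2.4e-05). The groups were apart in each of these genes, and all 3 were lower on counts too.

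Other genes of the same pathways were examined from 7 lists of known genes. Over all genes tested on FPKM, 44.2% were lower and 28.8% higher. Of 36 other mitosis genes tested on FPKM, 27 were lower and 5 higher, with a median log2 fold change of -1.13. Pimreg, a mitotic regulator of chromatin, fell most (-2.24 ± 0.14). Nek7, a kinase of spindle assembly, rose most on the log2(FPKM + 1) scale, from 78.6, 55.6 and 72.4 FPKM to 166.0, 158.6 and 163.0 FPKM (1.24 ± 0.12, and 1.31 on counts). Cdc25a, a phosphatase of the G1 to S transition, rose more by the ratio of means (2.45-fold, compared with 2.36-fold) and on counts (1.33), from 5.89 ± 0.37 to 14.4 ± 1.52 FPKM. Of 25 genes of the kinetochore and checkpoint, 20 were lower and 3 higher (median -1.04). Cenpa, the centromeric histone, was at -2.61 and Spc25, a subunit of the NDC80 complex, at 0.93. Neither Cenpa nor Spc25 was tested on counts.

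The list of APC/C subunits, which also held the activator Fzr1, was closer to the median of all genes than the 45 genes were. This held for the kinesins outside the spindle list as well. Of the 15 genes of the APC/C list, 10 were lower and 0 higher on FPKM, with Anapc13 the lowest at -1.56. Their median was -0.46 on FPKM and -0.61 for the 9 tested on counts. Fzr1 was among the lower genes, at -1.44 on FPKM and -1.32 on counts. Of the 45 genes, the other activator Cdc20 and the enzyme Ube2c were at -2.47 and -1.93 on FPKM. Of 15 other kinesins tested, 9 were lower and 3 higher (median -0.38 on FPKM, and 0.22 for the 9 tested on counts). The shares over all genes tested on FPKM were 44.2% lower and 28.8% higher. Kif21b, a kinesin known from neurons and lymphocytes, was at 49.7, 60.7 and 48.9 FPKM in the controls and at 3.31, 3.83 and 3.75 FPKM in the shCTCF samples. On FPKM this was a larger fall (log2 fold change -3.54 ± 0.11) than that of any of the 45 mitosis genes. Kif21b had 3, 3 and 5 counts in the controls and 0 in each shCTCF sample, and was not tested on counts. Kif1c, a motor of vesicle transport, rose from 13.5 ± 1.01 to 41.9 ± 2.77 FPKM.

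Genes of the contractile ring and of abscission that also serve cells outside mitosis lay on both sides of no change. Of 20 tested on FPKM, 6 were lower, 4 higher and 10 did not pass the test, with a median of 0.02, beside 44.2% lower and 28.8% higher over all genes tested. The lowest and the highest were Chmp6 (-0.92 ± 0.11) and Chmp3 (0.88 ± 0.10), both subunits of the ESCRT-III filaments that cut membranes. Chmp3 was not tested on counts. Of 34 genes of DNA replication, 26 were lower and 5 higher (median -0.89). Pold1, the catalytic subunit of DNA polymerase delta, fell most (-1.76 ± 0.09), while Rrm2, a subunit of ribonucleotide reductase, rose from 67.3 ± 2.04 to 165.5 ± 9.29 FPKM (1.29 ± 0.06). No difference between these lists and the 45 genes was tested.

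**Figure D4:**
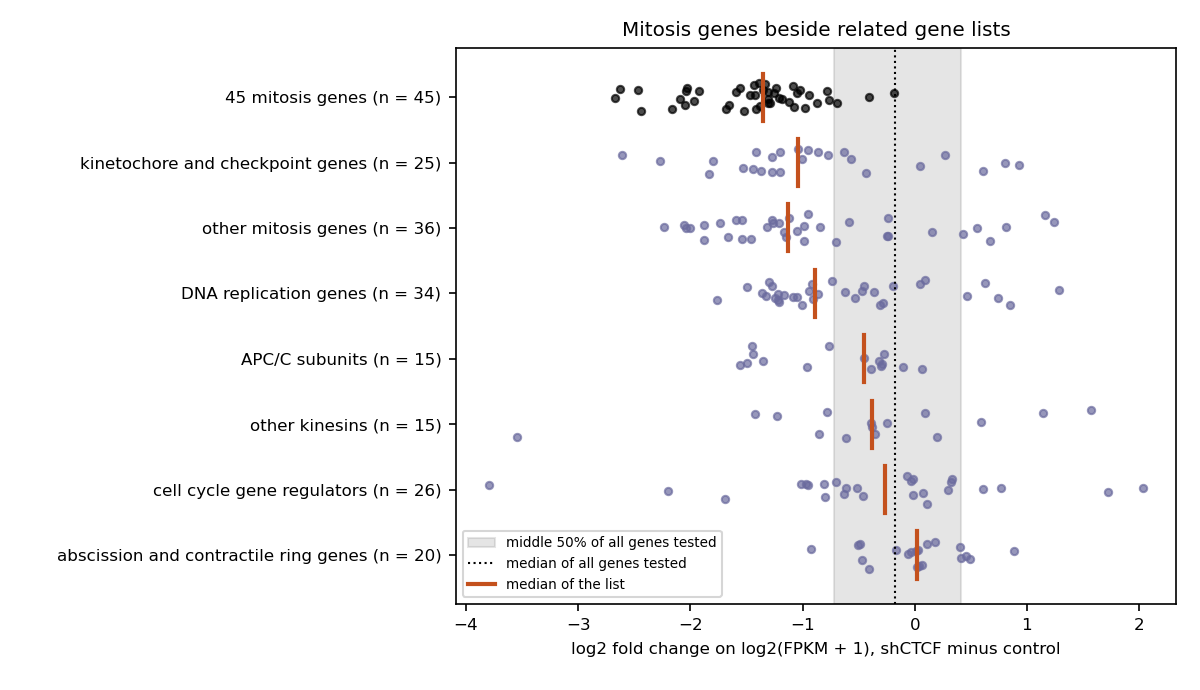
Change on log2(FPKM + 1), shCTCF minus control, of the 45 mitosis genes and of 7 lists of related genes. Each point is a gene, red lines are medians, the grey band holds the middle 50% of all genes tested and the dotted line is their median. The 45 mitosis genes have a median of -1.35 and the abscission and contractile ring genes one of 0.02.

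Among 26 known regulators of cell cycle genes, 13 were lower, 6 higher and 7 did not pass the test on FPKM, with a median of -0.26 beside -0.17 over all genes. The shares called were near those over all genes tested (44.2% lower and 28.8% higher). The regulators that changed at least 2-fold were of different kinds. Myb, a factor of immature blood cells and of proliferation, fell from 92.3, 100.9 and 92.1 FPKM to 5.73, 5.64 and 6.38 FPKM (log2 fold change -3.80 ± 0.08, adjusted p = 2.2e-08). Its paralogue Mybl1 rose from 2.32 ± 0.87 to 9.71 ± 0.60 FPKM and was not tested on counts. Mybl2, which encodes the B-Myb partner of MuvB and was singled out after its values were seen, went from 9.99 ± 1.08 to 5.31 ± 0.65 FPKM.

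E2f4 and Lin37, parts of the DREAM repressor, fell by 1.69 and 1.02 on the log2 scale, and Nfya, the DNA-contacting subunit of NF-Y, fell by 0.95. Lin37 and Nfya had 0 counts in every sample, so that their values rest on FPKM only. The other MuvB genes listed were not alike. Lin9 and Rbbp4 were lower (-0.46 and -0.70), while Lin52 and Lin54 did not pass the test (-0.01 and 0.08). Of the other NF-Y subunits, Nfyc was lower (-0.81) and Nfyb did not pass the test (-0.01). E2f5 went from 4.58, 1.99 and 4.80 FPKM to a listing at 0 in all shCTCF samples, while its log2 fold change on counts was -1.05. Rbl1, which encodes the pocket protein p107, was lower on FPKM (-0.97 ± 0.11) and did not pass the test on counts (-0.18 ± 0.15, adjusted p = 0.296). E2f7, an atypical E2F repressor, rose from 2.13 ± 0.19 to 4.36 ± 0.58 FPKM and was not tested on counts.

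Cdkn1a, which encodes the cyclin-dependent kinase inhibitor p21, was at 68.7, 72.7 and 72.4 FPKM in the controls and at 313.6, 293.2 and 280.5 FPKM in the shCTCF samples. It was higher in each shCTCF sample than in any control, 4.15-fold by the means (log2 fold change 2.04 ± 0.06, adjusted p = 1.6e-07). Few of its fragments were counted. The log2 fold change of Cdkn1a on counts was 0.99 ± 0.40 (edgeR, adjusted p = 0.044), a call that was lost with DESeq2 (adjusted p = 0.121) and whenever a sample other than control replicate 2 was left out (adjusted p from 0.0837 to 0.245).

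Several of the 45 genes were listed with more than 1 transcript accession in the FPKM table (15 genes), and the accessions of a gene could differ. For Prc1 the main accession went from a mean of 52.4 to 19.8 FPKM, while another was at 10.3 FPKM in the controls, with values from 0 to 20.6, and at 9.28 FPKM in the shCTCF group. For Cdc25b both accessions were lower, from 11.985 to 1.20 FPKM and from 5.92 to 0.77 FPKM. The division of reads among accessions was made by Cufflinks, varied between replicates of 1 group and was not tested, and the values above are sums over accessions.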

How the data were processed

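RNA-seq was performed on 3 control and 3 shCTCF samples of cultured cells labelled as FGSCs, grouped by the labels. Stranded mRNA libraries were aligned by the authors to mm9 with HISAT2 (version 4.8.2 per the submitters' notes). The authors counted fragments per RefSeq accession with featureCounts (version 1.6.2), without strand, and fragments over several accessions were left unassigned. The FPKM values were calculated by the authors with Cufflinks (version 2.2.1). Accessions were given symbols with a RefSeq gene table of GRCm38.p6 (names only), and values were summed per symbol. Coordinates are those of mm9.

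FPKM of genes with a mean of at least 1 were tested on log2(FPKM + 1), which understates changes of low genes, with limma 3.58.1 (eBayes with trend). Counts were tested with edgeR 4.0.16 (quasi-likelihood, TMM, filterByExpr). Two-sided p-values received Benjamini-Hochberg adjustment over all genes tested, with a threshold of 0.05. FPKM served for levels and as the first table because the plan of the comparison named it. Too few counts were available to test 14 of the 45 genes. Both tests were also run on simulated data in which few genes changed, in either direction. Many genes changed in the real samples, so that run does not bear on their scaling. A floor of 3 counts corresponded to 0.426 to 1.779 CPM, and floors cover counting error only.

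The genes named were those with the largest and the smallest change of each role and the largest fall and rise of each list. Named as well were Mki67, Top2a, Foxm1, Plk1, Aurka, Cdk1, Ccnb1 and Ctcf. To these were added members called in 1 table only and regulators called with at least 2-fold change. Other genes are given as examples by level or fold. The members and lists were chosen with earlier results of these data known. Alternatives were other filters, scalings, pseudocounts and tools, the highest row in place of the sum, the replicate block and the omission of each sample.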

Additional observations from a re-analysis of the deposited data

How the results depend on the processing

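Of 1104 comparisons of a gene with an alternative setting, 1096 kept direction and side of the threshold, and the exceptions concerned Kifc1 and Fbxo5. On FPKM 43 genes were lower with scaling to equal medians or quantile normalization and 45 without control replicate 2 (range 43 to 45 when a sample was left out), and on counts 29 were lower whichever sample was left out. Without a filter on low counts 42 of the genes were tested and 29 were lower, and the 13 others were Kifc1, Fbxo5 and 11 genes that had too few counts for the filter. Fbxo5 on counts (log2 fold change -0.09) changed sign to 0.0455 with counts thinned to the smallest library, and it ran from -0.1785 to 0.001183 when a sample was left out. Scaling to equal medians shifted the median change over the whole FPKM table from -0.17 to -0.01 and that of the 45 genes from -1.35 to -1.17, and scaling by library size only moved those on counts from -0.02 to -0.19 and from -1.22 to -1.39. Over all genes tested on counts, 34.3% were called lower and 34.8% higher. Among the cell cycle gene regulators, 8 of the 14 tested were called on counts, in either direction. The calls were 5 with library size only, 5 with thinned counts, and 5 to 8 with a sample left out. Among the abscission and contractile ring genes 8 of the 14 tested were called on counts. The calls there were 4 with thinned counts and 4 to 11 with a sample left out. The causes were not tested.

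Replicates with the same number did not deviate together (correlations -0.041, 0.018 and 0.0395), so that the numbers gave no pairing. With the replicate block 44 of the 45 genes were lower on FPKM and 29 on counts, as without it. The depth of control replicate 2 limits the values of genes with few counts.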
